A study of Mus musculus with 6 samples.

Results

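Oxidative phosphorylation runs through 4 electron-carrying complexes and an ATP synthase of the inner mitochondrial membrane. Complex I takes electrons from NADH and complex II from succinate, complex III passes them to the small soluble carrier cytochrome c, complex IV hands them to oxygen, and the proton gradient built on the way drives complex V, the ATP synthase. Most subunits are encoded in the nucleus and their mRNAs are translated in the cytoplasm, and in male germ cells several subunits are made from a second gene that is used mainly in the testis. The transcripts described here are those whose gene symbol starts with Ndufa, Ndufb, Ndufc, Ndufs, Ndufv, Uqcr, Atp5 or Cox4 to Cox8, or is Sdha, Sdhb, Sdhc, Sdhd, Cyc1, Cycs or Cyct. This rule on names found 136 transcripts of 92 genes among the 12114 contigs of the deposited tables, of which 11517 are annotated transcripts and 597 are repeat elements.

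The study sequenced native polyadenylated RNA of sorted germ cells on nanopores, so that each read gives the poly(A) tail of 1 molecule, to follow tails as meiotic cells become spermatids. The 2 groups are spermatocytes of the pachytene and diplotene stages of meiosis (P/D spermatocytes) and the haploid round spermatids (RS) that follow them, both sorted from testes of untreated adult C57BL/6J/B6 males by DNA content and light scatter. Each group has 3 samples, for each of which mRNA of 3 mice was combined. Per the study's methods, both cell types were isolated from each mouse, so the groups share animals, but the sources do not say whether pools of the same number hold the same mice, and the tests below treat the samples as unpaired unless a replicate block is named. One multiplexed library held the P/D samples and a separate one held RS, so that cell type and library cannot be told apart. The sort gate enriches P/D spermatocytes without isolating them, and by the study's microscopy it was clearly less pure than the gate for RS.

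The samples held 244004 to 474688 reads, with 7106 to 10529 reads of respiratory chain transcripts in each. Of all reads, round spermatid markers took 0.0118 to 0.0209% in P/D spermatocytes and 0.177 to 0.182% in RS, and elongating spermatid markers 0.163 to 0.216% and 2.09 to 2.58%. Pachytene and diplotene markers took 0.295 to 0.338% in P/D spermatocytes and 0.147 to 0.173% in RS, so each label fits the pooled share of its own markers. Single markers varied: of 11 pachytene and diplotene marker transcripts tested for accumulation, 7 were called lower and 2 higher in RS. Over all 6005 transcripts tested, 30.8% were lower and 32.6% higher. Sertoli and spermatogonial markers had 0 to 5 reads in any sample, Leydig cell markers 1 to 7, and macrophage and erythrocyte markers were not analysed here. These counts rest on the 2 of 5 Sertoli, 1 of 5 spermatogonial and 1 of 4 Leydig cell genes that were listed. Of 4 leptotene and zygotene markers 1 was listed, with 19 to 25 reads in the P/D samples and 12 to 29 in the RS samples. In such bulk samples, fewer cells of a type and less RNA per cell cannot be told apart, and every share of reads is relative to the other transcripts of the same library.

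A poly(A) tail is added behind a cleavage site that usually lies a short way after the hexamer AATAAA or its variant ATTAAA. In the GENCODE sequences of the 136 transcripts, the last 40 bases held AATAAA in 66.2%, only ATTAAA in 15.4% and neither in 18.4%, against 59.3, 14.4 and 26.3% of 11344 annotated transcripts in the tables. The last 30 bases (5′ to 3′, GRCm38) are shown for members whose tails behaved differently: the first 3 gained much tail, the next 3 are from genes used mainly in the testis and gained little or gave no call, and the last 2 were called shorter in RS. The call on Ndufb11b was lost in several fits given below. Capitals mark the hexamer.
Ndufb10, chr17:24722060-24722089, minus strand: aaaAATAAAgtcaagagttttggacataaa
Atp5mc1, chr11:96068852-96068881, minus strand: ataAATAAAttttttaaaaaagctttaaaa
Ndufv2, chr17:66078638-66078667, minus strand: ttgtatgAATAAAacattaccttcaactca
Cox8c, chr12:102900497-102900526, plus strand: ttaagtgttaAATAAAatggaaacacttgt
Cox7b2, chr5:71442824-71442853, minus strand: taacaaaagaAATAAAattcattcaaaatt
Cox6b2, chr7:4751792-4751821, minus strand: gtgccacaAATAAAgttattgtgctgctaa
Ndufb11b, chr15:81981534-81981563, plus strand: taaactatAATAAAatggttcttaagcctc
Ndufc2, chr7:97407773-97407802, plus strand: ctgttATTAAAatagttattacaaatcatc
In these 8 the hexamer has 14 to 21 bases after it. It lies farther from the end in Ndufs1, the third member with a shorter tail, with 30 bases after it, and in Cyct, with 29.

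Tails of respiratory chain transcripts were longer in RS, with medians over reads of 85.1 to 86.3 nt in the P/D samples and 145.9 to 147.3 nt in the RS samples. The most filled 10-nt bin in P/D spermatocytes was 50 to 60 nt, which held 10.02% ± 0.238 of the reads, whereas in RS the bin of 150 to 160 nt held 10.51% ± 0.158 (SD, n = 3 each). The mean tail over all reads of the 136 transcripts was 98.3, 97.4 and 97.5 nt in the P/D samples and 143.9, 142.5 and 144.5 nt in the RS samples. Groups did not overlap, and the difference of 45.9 nt had the smallest p that 3 samples against 3 allow in a two-sided exact permutation test, 0.1. The share of reads with tails of 120 to 210 nt, the ~150-nt class, went from 27.2% ± 0.207 to 66.7% ± 0.256 (n = 3 each).

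The rest of the annotated transcripts moved by about the same amount, from 108.0 ± 1.37 to 154.9 ± 2.71 nt (n = 3 each). Respiratory chain reads differed from the other transcripts by -10.2 ± 0.886 nt in P/D spermatocytes and by -11.3 ± 1.74 nt in RS, so that they were shorter in both, and this gap changed by -1.05 nt between the cell types (exact permutation p = 0.5, n = 3 each). Transcript by transcript, members entered limma, together with all other transcripts, where 2 or more replicates of 1 cell type held 10 or more reads and both cell types gave 2 or more replicate means. Of those that entered, 82 were longer in RS, 3 were shorter and 16 did not pass the adjusted threshold of 0.05. Over all 6990 transcripts tested, 54.2% were called longer and 1.69% shorter. The median difference was 51.0 nt among these members and 37.4 nt among all transcripts tested. Both contrasts narrowed at higher read depth. Where no sample held fewer than 20 reads, 1592 of 1827 transcripts and 64 of 68 members were called longer. Medians were then 49.9 nt over all transcripts and 56.0 nt over members. The 54.2% set beside each complex below is not matched for read depth, and what depth contributes was not tested.

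Accumulation went the other way. Respiratory chain reads made up 3.75, 3.44 and 3.81% of the P/D samples and 2.24, 2.09 and 2.21% of the RS samples, a 1.68-fold lower mean share in RS (exact permutation p = 0.1, n = 3 each). In edgeR's quasi-likelihood test, which 100 members entered, 71 were lower in RS, 4 were higher and 25 did not pass. The background was 30.8% lower and 32.6% higher of 6005 transcripts tested, and the median log2 fold change was -0.79 among the members and -0.03 among all. The remaining 36 members were too low for this test and 35 for the tail test, and 23 of the 136 had fewer than 10 reads in every sample.

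Among the 100 members tested for both, 57 were both longer in tail and lower in accumulation, 22 were longer with no call in accumulation, and 12 were lower with no call in tail. Joint calls were not counted over all transcripts, so these counts have no background. In the separate tests, 54.2% of all transcripts were longer and 30.8% lower. The 2 that were longer and higher were both transcripts of Atp5mj. Over these 100 members, tail difference and log2 fold change had a Spearman's rho of 0.0358 and a Pearson's r of 0.0305 across transcripts, given as a description since both values of a transcript come from the same reads. Over the 5916 transcripts tested for both, rho was -0.260.

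**Figure D1:**
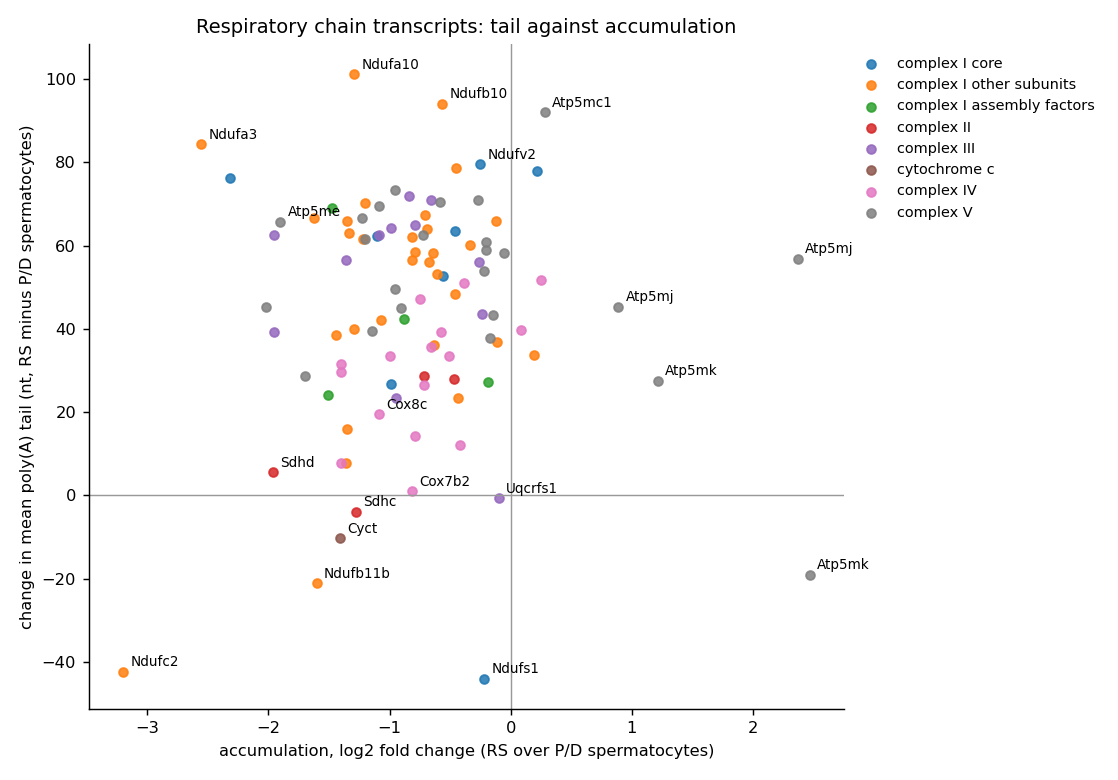
Change in mean tail (nt, RS minus P/D spermatocytes) against the log2 fold change in accumulation (RS over P/D spermatocytes) of the 100 transcripts tested for both, coloured by class. Most points lie above 0 nt and left of a fold change of 0, with the 4 transcripts of Atp5mj and Atp5mk on the right and Ndufs1, Ndufc2 and Ndufb11b at the bottom.

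The complexes did not gain tail equally. Pooled over reads, mean tails rose from 96.4 ± 0.866 to 157.5 ± 0.765 nt for complex V, from 91.6 ± 0.860 to 145.4 ± 0.856 nt for complex III and from 94.0 ± 0.777 to 146.4 ± 1.08 nt for the non-core subunits of complex I. The 7 genes of the catalytic core of complex I went from 89.3 ± 0.773 to 153.2 ± 2.56 nt. Gains were smaller for complex IV, from 104.6 ± 0.552 to 132.4 ± 0.999 nt, and for complex II, from 96.5 ± 5.70 to 117.3 ± 1.11 nt. Cytochrome c reads averaged 120.8 ± 2.26 nt in the P/D samples and 116.0 ± 7.56 nt in those of RS (SD, n = 3 each), and this class was the only one of the 8 whose samples overlapped between the cell types, with an exact permutation p of 0.4.

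Each class was then set against the other members of the same sample, which removes what all of them share. By this measure complex IV fell behind by 26.7 nt, since its reads were 10.1 ± 0.386 nt longer than those of the other members in P/D spermatocytes and 16.6 nt shorter in RS. Complex II fell behind by 25.5 nt and cytochrome c by 51.3 nt, whereas complex V moved ahead by 18.8 nt. In all 4 the two-sided exact permutation p was 0.1 (n = 3 each), the smallest possible, and the Benjamini-Hochberg value over the 8 classes was 0.114. These differences kept their direction when any 1 sample was left out. The lead of the complex I core, 18.9 nt, rested on Ndufv2, and was 2.05 nt without its most abundant transcript (exact permutation p = 0.4, n = 3 each).

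**Figure D2:**
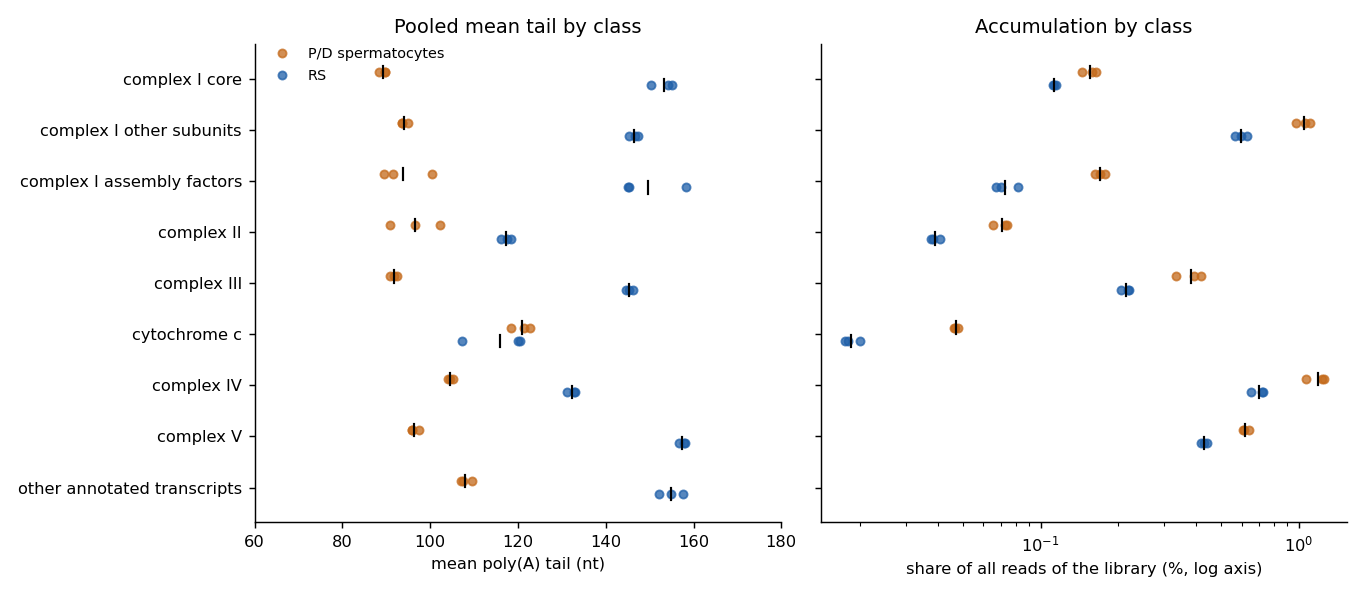
Left, mean poly(A) tail (nt) of all reads of each class in each sample, with the other annotated transcripts in the bottom row; right, share of all reads of the library (%, log axis). Points are the 3 P/D and 3 RS samples and black bars the means: tails move right in every class but cytochrome c, and shares move left in all 8.

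The shape of the distributions differed along with the means. In complex V, the ~150-nt class held 25.7% ± 1.06 of the P/D reads and 78.1% ± 0.386 of the RS reads. In complex IV it held 32.6% ± 0.229 and 56.5% ± 0.229, so that 39.9% ± 0.513 of its RS reads still had tails of 30 to 120 nt, against 14.6% ± 0.305 in complex V. Complex II kept 59.9% ± 1.11 of its RS reads in that shorter class (SD, n = 3 each). For cytochrome c the ~150-nt class held 33.8% ± 5.59 of the P/D reads and 34.7% ± 3.66 of the RS reads, with an exact permutation p of 0.9 (n = 3 each). Its class of 30 to 120 nt went from 54.3% ± 0.393 to 61.3% ± 4.21, with groups that did not overlap (exact permutation p = 0.1, n = 3 each).

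**Figure D3:**
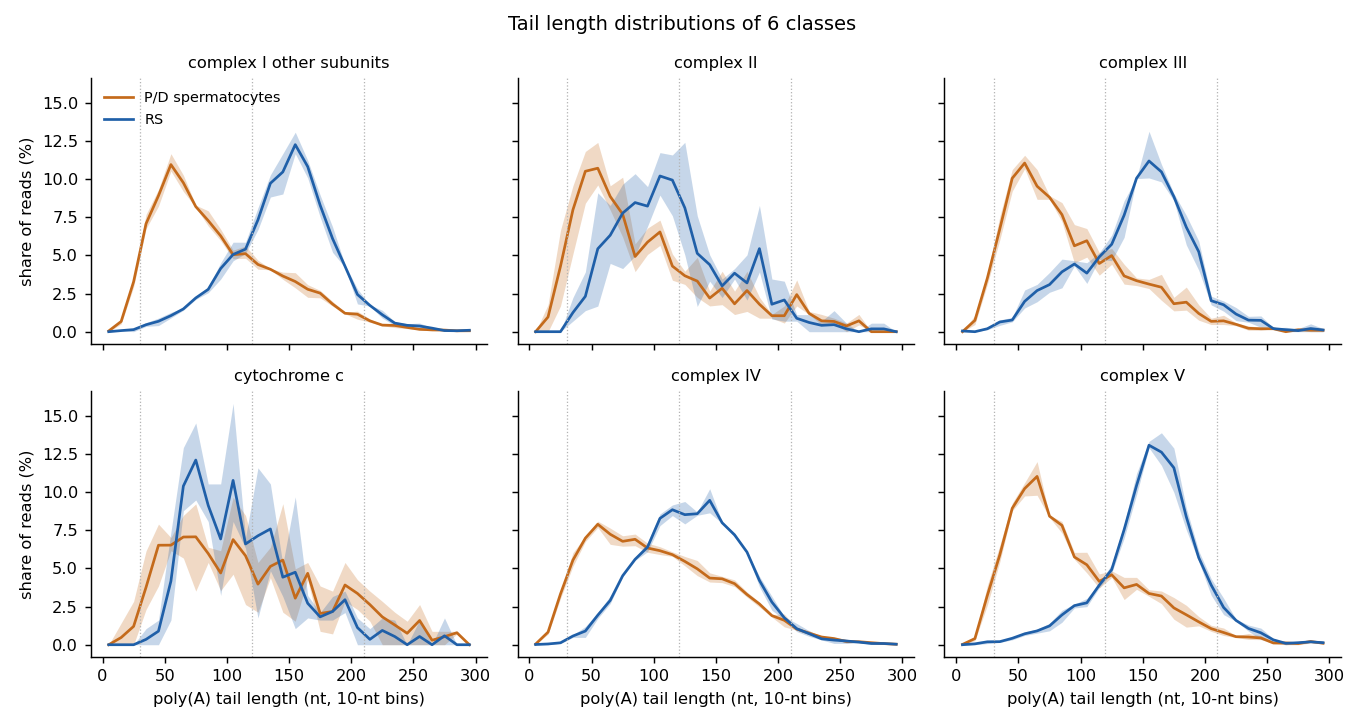
Share of reads (%) in 10-nt bins of poly(A) tail length for 6 classes, with the mean of the 3 samples as a line and their range as a band; dotted lines mark 30, 120 and 210 nt. The non-core subunits of complex I and complexes III and V have an RS peak near 150 nt, complex IV a broad one, and complex II and cytochrome c have most RS reads below 120 nt.

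The fall in accumulation was shared by all classes. The pooled share of the library was 1.38-fold lower in RS for the complex I core, 1.74-fold for its other subunits, 1.82-fold for complex II, 1.79-fold for complex III, 1.69-fold for complex IV and 1.45-fold for complex V. Cytochrome c fell 2.54-fold and the Ndufaf assembly factors of complex I 2.33-fold, and both rest on 1 transcript. Without Cyct the share of cytochrome c was 0.000866 percentage points higher in RS, and without Ndufaf3 the difference of the assembly factors was -0.0184 instead of -0.097 percentage points. Groups did not overlap in any class (exact permutation p = 0.1 each, n = 3). By transcript, 4 of 8 core subunits of complex I, 25 of 31 other subunits, all 4 of complex II, 9 of 12 of complex III, 13 of 16 of complex IV and 12 of 24 of complex V were called lower. The share called lower over all transcripts tested was 30.8%.

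Complex I is the entry point for electrons from NADH and the largest of the complexes. Of 9 tested transcripts of its core, 7 were longer and 1 shorter in RS, and of 31 of its other subunits, 27 were longer and 2 shorter. Over all transcripts tested, 54.2% were longer and 1.69% shorter. Ndufv2, an iron-sulphur subunit of the NADH-oxidising arm, was the most abundant core transcript (ENSMUST00000143987). Its tails were 82.0, 90.1 and 87.0 nt in P/D spermatocytes and 169.1, 163.2 and 165.5 nt in RS, a gain of 79.6 nt (SE 5.58, limma adjusted p = 0.00049). Its reads, 168 to 215 in P/D spermatocytes against 199 to 257 in RS, gave no call in accumulation (log2 fold change -0.25, edgeR adjusted p = 0.0679), though without P/D replicate 1 it was called lower (-0.33, adjusted p = 0.037), as it was with the replicate block (adjusted p = 0.0432). Every RS sample thus lay far above every P/D sample in tail.

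Among the accessory subunits of complex I, the median gain was 58.2 nt. Ndufb10 had the largest gain among members with at least 20 reads in every sample. Its transcript had tails of 80.5, 70.7 and 76.4 nt in P/D spermatocytes and 166.8, 171.3 and 171.6 nt in RS, a gain of 94.1 nt (SE 5.70, adjusted p = 0.00049). Ndufb8, likewise an accessory subunit of the membrane arm, gained 78.7 nt. The most read transcript of this class, Ndufc1, gained 62.1 nt, from 91.5 to 98.0 nt up to 154.6 to 162.8 nt, while its level fell 1.76-fold (adjusted p = 1.27e-07).

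Some subunits with long RS tails fell steeply. Ndufa3 gained 84.3 nt and had 62, 50 and 67 reads in P/D spermatocytes against 13, 13 and 15 in RS, a 5.88-fold lower level (log2 fold change -2.56, adjusted p = 1.69e-11). Its RS tails of 150.8 to 178.1 nt therefore come from a handful of reads per sample. Ndufb9 gained 66.7 nt and fell 3.08-fold (adjusted p = 2.76e-11). A long tail in RS and a lower level thus occurred together in both transcripts.

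The 3 members with shorter tails in RS all belong to complex I. Ndufs1 encodes its largest core subunit, which carries iron-sulphur clusters, and its transcript (chromosome 1, 63143596 to 63176822, 19 exons) had tails of 138.6, 104.0 and 121.4 nt in P/D spermatocytes and 81.4, 78.1 and 72.4 nt in RS. The fall was 44.0 nt (difference -44.02, SE 9.76, adjusted p = 0.00965), on 16 to 23 reads in each P/D sample and 10 to 40 in each RS sample. Its level gave no call (log2 fold change -0.22, adjusted p = 0.549), and that value turned to 0.06 without RS replicate 1.

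Ndufc2, an accessory subunit of the membrane arm, lost both tail and level. Tails were 117.9, 105.8 and 112.5 nt in P/D spermatocytes and 61.0, 69.3 and 78.7 nt in RS, a difference of -42.4 nt (SE 7.12, adjusted p = 0.0032). Reads numbered 47, 60 and 51 against 5, 13 and 5, which is a 9.19-fold lower level and the lowest fold change of all members (log2 -3.20, adjusted p = 3.76e-13). No RS sample reached the lowest P/D sample in either measure. Ndufc2 entered the tail test only through its P/D reads, however, and its RS tails rest on 5 to 13 reads per sample. Its partner in name, Ndufc1, was on the opposite side in tail.

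Ndufb11b, whose symbol comes from the deposited annotation, is an autosomal gene with 1 exon (chromosome 15, 81980540 to 81981563, 1700029P11Rik in GENCODE). Its tails were 118.6, 114.0 and 109.7 nt in P/D spermatocytes and 102.6, 84.5 and 91.9 nt in RS, a difference of -21.1 nt (SE 6.92, adjusted p = 0.0412). Reads were 159, 154 and 172 against 76, 80 and 60, a 3.04-fold lower level (adjusted p = 6.42e-12). The groups did not overlap, but the call on the tail was lost in fits without P/D replicate 1 (-18.8 nt, adjusted p = 0.0857), P/D replicate 2 (-21.1 nt, 0.0706), RS replicate 2 (-16.8 nt, 0.112) or RS replicate 3 (-20.5 nt, 0.0972), and with the replicate block (adjusted p = 0.0697). It was also lost with median tails (-18.5 nt, adjusted p = 0.102), on the log2 scale (0.228) and with only tails of 10 to 300 nt (0.0509).

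Assembly factors of complex I named Ndufaf help to build it and are not part of the finished enzyme. Of 4 tested, 3 were longer and 3 lower in RS, against 54.2% longer and 30.8% lower over all transcripts tested. Ndufaf3 held most of their reads, with 271, 395 and 337 in P/D spermatocytes against 155, 182 and 147 in RS, and gained 69.0 nt (adjusted p = 0.000544) while falling 2.77-fold (adjusted p = 3.21e-14). Without this transcript, the pooled gain of the assembly factors was 31.0 nt instead of 55.8 nt, and their change against the other members went from 10.3 to -14.5 nt.

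Complex II, which is also the succinate dehydrogenase of the citric acid cycle, is built from 4 nuclear genes, of which 2 were longer in RS. That share is near the 54.2% called longer over all transcripts tested. Sdha, the flavoprotein of the matrix-facing head, went from 92.3, 77.0 and 94.3 to 122.6, 115.6 and 111.5 nt (28.7 nt, SE 7.21, adjusted p = 0.0157). Sdhb, the iron-sulphur subunit of the head, went from 95.2, 98.6 and 94.7 to 125.1, 125.0 and 122.3 nt (28.0 nt, SE 5.21, adjusted p = 0.0048). Neither reached the ~150 nt seen in most other subunits. The call on Sdha was lost without RS replicate 1 (25.7 nt, adjusted p = 0.0559).

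The membrane anchors of complex II, Sdhc and Sdhd, did not pass. Sdhc had 111.9, 88.1 and 101.6 nt in P/D spermatocytes and 83.5, 101.9 and 104.3 nt in RS (difference -3.96 nt, SE 9.23, adjusted p = 0.74). For Sdhd the samples had 128.9, 105.4 and 99.1 nt and 115.8, 127.1 and 107.3 nt (difference 5.58 nt, SE 10.05, adjusted p = 0.666). Their groups overlapped, the standard errors are wider than for Sdha and Sdhb, and whether head and anchor subunits differ was not tested. In accumulation all 4 fell: Sdhb 1.38-fold, Sdha 1.64-fold, Sdhc 2.42-fold and Sdhd 3.91-fold (adjusted p = 9.27e-07 for Sdhd), where the call on Sdhb was lost without RS replicate 2 (log2 fold change -0.33, adjusted p = 0.1), with at least 10 counts required in each sample (-0.27, 0.159) and by DESeq2 (0.118).

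Complex III takes electrons from ubiquinol. Of its 12 tested transcripts, 11 were longer and none shorter in RS, against 54.2% longer and 1.69% shorter over all transcripts tested. Uqcrq, a small subunit of the membrane part, had tails of 88.3, 95.2 and 88.2 nt in P/D spermatocytes and 162.4, 162.1 and 163.2 nt in RS, a gain of 72.0 nt (SE 5.40, adjusted p = 0.00049), and fell 1.79-fold. Uqcrc2, 1 of the large core proteins, gained 39.3 nt (adjusted p = 0.00196) and fell 3.87-fold, from 55, 65 and 56 reads to 10, 34 and 18. The member that did not pass was Uqcrfs1, the Rieske iron-sulphur protein, singled out here after its values were seen: its tails averaged 105.0 ± 4.94 and 104.3 ± 0.551 nt (n = 3 each), and its level did not pass either (log2 fold change -0.10, adjusted p = 0.59). With 67 to 140 reads in each sample, it is among the deeper members.

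Complex IV, cytochrome c oxidase, was the class with most reads and one of those with the smallest gains. Ndufa4 and Ndufa4l2 were counted in this class despite their names, and Ndufa4l2 had its largest gain, 51.7 nt. Without the members of the class that are not subunits, the pooled gain was 27.4 nt instead of 27.8 nt. Of 16 tested transcripts, 10 were longer and none shorter, which is 62.5% against 54.2% of all transcripts, not matched for read depth. Their median gain of 32.5 nt was below the 37.4 nt over all transcripts. Cox7a2 gained 51.0 nt, from 105.2, 109.4 and 99.98 to 155.3, 153.1 and 159.0 nt (SE 5.69, adjusted p = 0.000731). Cox6a1 gained 39.2 nt and the main Cox4i1 transcript, whose product is a regulatory subunit, 29.7 nt (adjusted p = 0.00235 and 0.00474). Cox4i1 fell 2.64-fold, from 346, 408 and 394 reads to 182, 213 and 190. Cox6c and Cox7c, small structural subunits named after their values were seen, moved by 14.1 and 12.2 nt without passing (adjusted p = 0.0788 and 0.103) on 179 or more reads in every sample. In the fit of transcripts that no sample held fewer than 20 reads of, both were called longer (adjusted p = 0.00996 and 0.0135).

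Complex IV also holds 3 testis paralogues. Cox8c was the most read transcript of the whole set, with 696, 692 and 777 reads in P/D spermatocytes against 398, 529 and 454 in RS, a 2.13-fold lower level (adjusted p = 2.88e-12). Its tails were 111.4, 107.3 and 104.2 nt in P/D spermatocytes and 128.0, 127.3 and 126.3 nt in RS, a gain of 19.5 nt (SE 5.35, adjusted p = 0.0215). The samples did not overlap, yet the call was lost without RS replicate 1 (19.1 nt, adjusted p = 0.0676), RS replicate 2 (19.5 nt, 0.0555) or RS replicate 3 (adjusted p = 0.0505), and with the replicate block (adjusted p = 0.0692).

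Cox7b2 gave no call in tail. Its tails were 95.6, 89.99 and 94.1 nt in P/D spermatocytes and 97.8, 89.8 and 94.99 nt in RS, a difference of 0.95 nt (SE 5.57, adjusted p = 0.896), on 193 to 312 reads per sample. The groups overlapped, and the sign turned without P/D replicate 2 (-0.67 nt) or RS replicate 1 (-0.86 nt). The main Cox6b2 transcript gained 26.5 nt (SE 5.62, adjusted p = 0.0081), and its less read forms ENSMUST00000182111 and ENSMUST00000184143 had 33.5 and 33.6 nt with adjusted p-values of 0.0804 and 0.0568. Those 2 passed in the fits without RS replicate 3 (46.5 nt, adjusted p = 0.0173) and without RS replicate 2 (42.5 nt, 0.0326), respectively. In level, Cox7b2 and 2 of the 3 Cox6b2 transcripts were called lower in RS, and ENSMUST00000184143 did not pass (log2 fold change -0.51, adjusted p = 0.0796), though it did without P/D replicate 2 (-0.66, adjusted p = 0.0416). By DESeq2 the call on ENSMUST00000182111 was lost (-0.96, adjusted p = 0.0959).

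Cytochrome c itself comes from Cycs in most tissues and from Cyct in the testis. The Cyct transcript (chromosome 2, 76353942 to 76360450, 4 exons) had 110, 140 and 128 reads in P/D spermatocytes against 50, 87 and 57 in RS, a 2.65-fold lower level (adjusted p = 1.64e-10). Its tails were 120.9, 118.0 and 118.7 nt and then 108.5, 105.1 and 113.1 nt, a difference of -10.3 nt (SE 5.44, adjusted p = 0.158). The RS samples lay below every P/D sample, but limma gave no call over all transcripts tested. In the fit restricted to 20 or more reads per sample it was called shorter (adjusted p = 0.0295), and the test of the study's methods, adjusted in the same way, gave 0.0333.

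**Figure D4:**
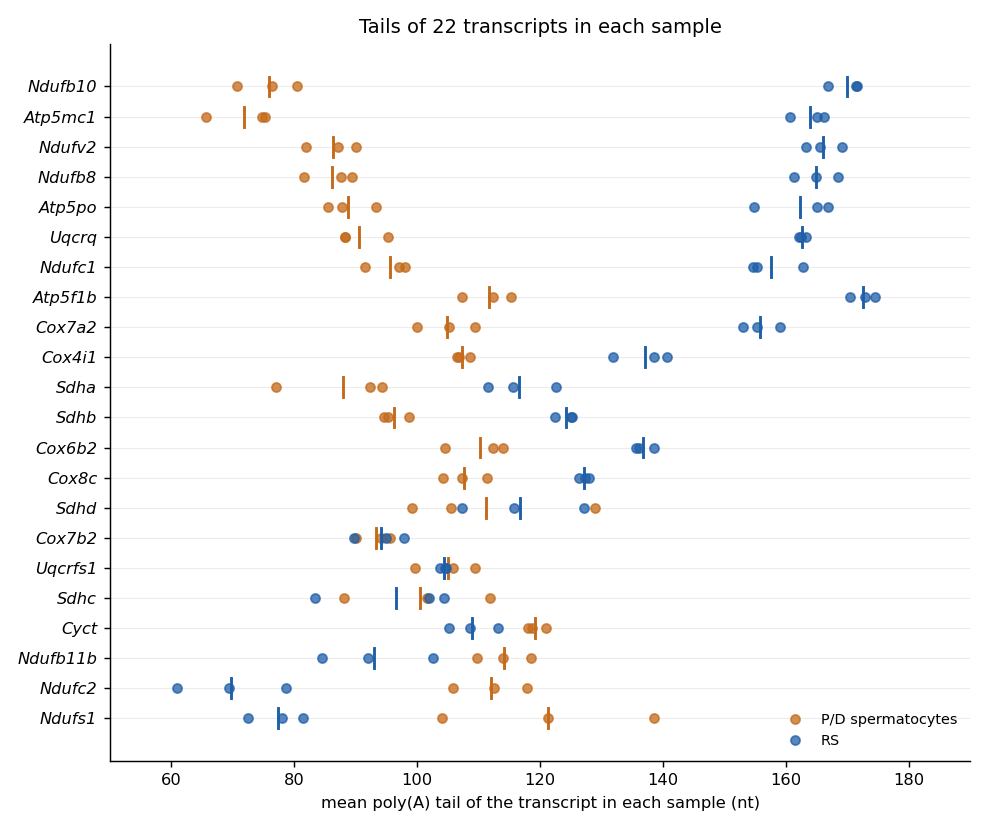
Mean poly(A) tail (nt) of 22 transcripts in each of the 3 P/D and 3 RS samples (points) with the group means (bars). From top to bottom the shift goes from gains of over 90 nt in Ndufb10 and Atp5mc1 through overlapping groups in Sdhd, Cox7b2, Uqcrfs1 and Sdhc to shorter RS tails in Ndufb11b, Ndufc2 and Ndufs1.

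Taken as a set, the 4 testis paralogues Cyct, Cox6b2, Cox7b2 and Cox8c went from 106.1 ± 2.35 to 120.6 ± 1.59 nt, against 96.4 and 146.7 nt in the other members. Their change between the cell types differed from that of the other members by -35.9 nt, with an exact permutation p of 0.1 (n = 3 each). Complex IV without its 3 testis paralogues gained 33.7 nt, from 104.4 ± 1.08 to 138.1 ± 0.926 nt, against 54.5 nt in all members outside complex IV pooled (exact permutation p = 0.1, n = 3 each).

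In the pairs that could be read, nearly all reads came from the testis gene. Cyct took 96.5, 99.3 and 98.5% of the reads of Cyct and Cycs in P/D spermatocytes and 87.7, 91.6 and 91.9% in RS. All RS samples were lower, with 5 to 8 Cycs reads in each against 1 to 4 in P/D spermatocytes, and the 95% Wilson interval of the lowest RS sample ran from 76.8 to 93.9%. Cox6b2 took 94.2 to 98.5% of its pair with Cox6b1 and Cox8c 99.2 to 99.9% of its pair with Cox8a, with overlapping groups in both. No pair had at least 10 reads of both genes in every sample, so these shares were not tested, and the intervals cover counting error only.

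The same held for Ndufb11b, a pair chosen after its values were seen. It took 98.8, 99.4 and 99.4% of its reads with the X-linked Ndufb11 in P/D spermatocytes and 98.7, 97.6 and 95.2% in RS. Ndufb11 had 1 to 3 reads in each sample, and Ndufa1, the other X-linked member in the tables, 1 to 7. Both genes were too low to test, and so were the autosomal Cycs, with 1 to 8 reads in each sample, and Cox8a, with 1 to 4. X chromosomes are silenced in meiosis, and whether this bears on the reads of the 2 X-linked genes was not tested. The coding sequences of the most read transcripts share 77.1% of bases for Cyct and Cycs, 62.0% for Cox6b2 and Cox6b1, 54.6% for Cox8c and Cox8a and 75.8% for Ndufb11b and Ndufb11. Of the 54942 member reads, 46 were listed on more than 1 contig. Cox7b, Cox4i2, Cox6a2 and Cox7a1 were not analysed here.

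**Figure D5:**
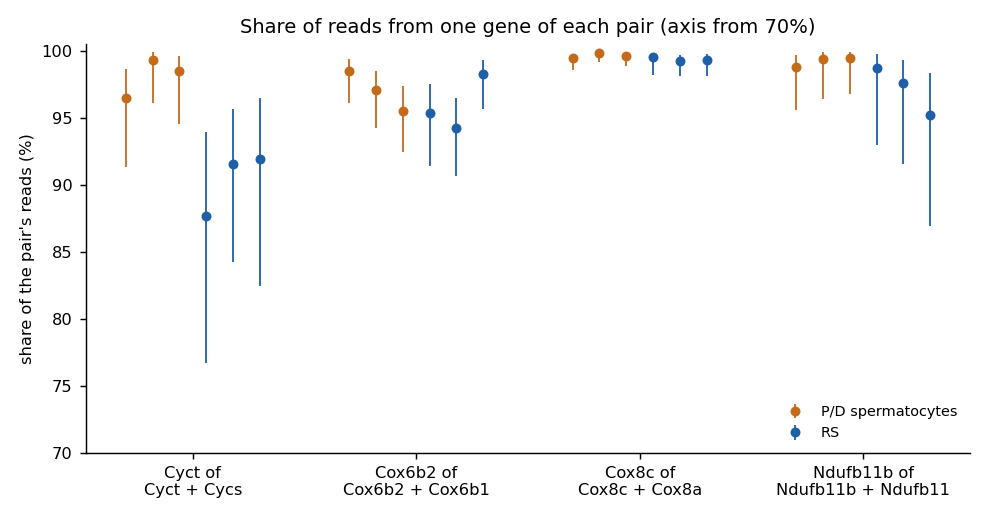
Share of the reads of each pair (%, axis from 70%) that came from Cyct, Cox6b2, Cox8c and Ndufb11b in the 3 P/D and 3 RS samples, with 95% Wilson intervals. The lowest point is 87.7%, and the Cyct points of RS lie below those of P/D spermatocytes.

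The start regions of these pairs differ in their letters. Shown are the 250 bases before the RefSeq start (GRCm38.p6, 5′ to 3′ on the gene's strand) of Cyct and Cox6b2 and their partners, with capitals for the motifs searched on both strands: the NRF1 motif (GCGCA, any base, GCGC), the ETS motif CCGGAAG and the CRE motif TGACGTCA.
Cyct, chr2:76360454-76360703, minus strand: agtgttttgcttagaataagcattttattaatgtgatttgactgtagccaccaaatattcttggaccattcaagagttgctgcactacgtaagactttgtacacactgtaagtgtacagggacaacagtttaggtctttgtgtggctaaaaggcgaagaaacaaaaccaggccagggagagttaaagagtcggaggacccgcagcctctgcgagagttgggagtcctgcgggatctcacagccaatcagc
Cycs, chr6:50566570-50566819, minus strand: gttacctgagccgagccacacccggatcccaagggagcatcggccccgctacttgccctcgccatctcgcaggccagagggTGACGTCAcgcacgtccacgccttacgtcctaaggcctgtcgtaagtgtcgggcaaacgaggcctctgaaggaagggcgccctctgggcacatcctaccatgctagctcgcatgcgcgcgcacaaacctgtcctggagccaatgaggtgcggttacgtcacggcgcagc
Cox6b2, chr7:4753095-4753344, minus strand: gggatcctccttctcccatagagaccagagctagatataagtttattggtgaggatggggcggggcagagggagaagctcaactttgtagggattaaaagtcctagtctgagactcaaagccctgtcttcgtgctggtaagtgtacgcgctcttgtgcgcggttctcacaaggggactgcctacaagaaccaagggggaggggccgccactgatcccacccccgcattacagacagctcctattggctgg
Cox6b1, chr7:30626115-30626364, minus strand: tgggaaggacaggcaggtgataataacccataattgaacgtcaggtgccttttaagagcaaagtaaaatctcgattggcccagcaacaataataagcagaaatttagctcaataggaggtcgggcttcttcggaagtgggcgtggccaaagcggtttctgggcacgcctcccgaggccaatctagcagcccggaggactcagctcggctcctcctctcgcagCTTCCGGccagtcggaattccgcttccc
Cycs holds a CRE motif and Cox6b1 an ETS motif, and neither testis gene holds any of the 3 in this window. Ndufb11b and its partner Ndufb11 hold none of the 3 either, and the same goes for Cox7b2 and for Cox8a, the partner of Cox8c. Cox8c itself has no entry. Over the 76 of 92 member genes with an entry, 300 bases around the start held the NRF1 motif in 23.7%, the ETS motif in 22.4% and the CRE motif in 6.58%, against 4.78, 9.12 and 1.88% of 27025 promoters. These are matches of letters, with no measurement of binding.

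Complex V, the ATP synthase, had a median gain of 57.6 nt over its tested transcripts, close to the 59.5 nt of complex III and the 58.2 nt of the accessory subunits of complex I. Of 24 tested transcripts, 22 were longer and none shorter, against 54.2% longer and 1.69% shorter over all transcripts tested. Atp5f1b encodes the catalytic beta subunit and had most reads, 149, 229 and 186 in P/D spermatocytes against 197, 271 and 192 in RS. Its tails went from 112.3, 107.3 and 115.3 to 174.4, 170.4 and 172.8 nt, a gain of 60.9 nt (SE 5.48, adjusted p = 0.000491), with no call in accumulation (log2 fold change -0.20, adjusted p = 0.14) except without P/D replicate 1 (-0.32, adjusted p = 0.0397). Atp5po, part of the stalk that holds the catalytic head, gained 73.4 nt and fell 1.94-fold (adjusted p = 4.61e-07). Atp5me, a small membrane subunit, gained 65.7 nt and fell 3.73-fold, from 83, 76 and 82 reads to 19, 40 and 29.

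The proton-carrying c ring is made from several genes with the same mature product, and they differed. Atp5mc1 (Atp5g1 in GENCODE) went from 65.6, 75.2 and 74.8 to 160.7, 165.0 and 166.1 nt, a gain of 92.1 nt (SE 5.81, adjusted p = 0.00049), with no call in level (log2 fold change 0.28, adjusted p = 0.343). The main Atp5mc3 transcript gained 28.7 nt (SE 6.04, adjusted p = 0.00787) and fell 3.24-fold, from 43, 34 and 38 reads to 17, 19 and 12. Its other transcript, ENSMUST00000111996, with 53 reads over all samples, gained 44.9 to 47.2 nt in fits leaving out 1 replicate. At the gene level the gains were 92.2 nt for Atp5mc1 and 32.7 nt for Atp5mc3. The gene-level log2 fold change of Atp5mc1 was 0.07 (edgeR adjusted p = 0.805). Atp5mc2 had 0 to 7 reads in each sample and was not tested. The test of the difference between the c ring genes was not made.

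Only 4 members were higher in RS, against 32.6% of all transcripts tested, and they are transcripts of Atp5mj and Atp5mk, which encode small accessory membrane proteins of the synthase. They are named outside the rule, since none reached 50 reads in every RS sample. The Atp5mj transcript ENSMUST00000021719 had 13, 21 and 29 reads in P/D spermatocytes against 39, 60 and 59 in RS, 1.85-fold higher (adjusted p = 0.00183), and ENSMUST00000222874 had 5, 6 and 5 against 30, 49 and 35, 5.17-fold higher (adjusted p = 5.86e-08). For Atp5mk, ENSMUST00000096014 had 15, 12 and 18 reads against 39, 57 and 46, 2.32-fold higher (adjusted p = 7.39e-05). ENSMUST00000237720, annotated as subject to nonsense-mediated decay, had 3, 5 and 4 against 29, 29 and 33, 5.53-fold higher (adjusted p = 4.09e-07). RS lay above P/D spermatocytes in every sample of all 4. With at least 10 counts required in every sample, 4 members were called higher, but only 2 of them were among these 4. Both Atp5mj transcripts also gained tail, by 45.3 and 56.8 nt, while the Atp5mk transcripts did not pass (27.5 and -19.1 nt, adjusted p = 0.074 and 0.332). ENSMUST00000222874 and ENSMUST00000237720 entered the tail test only through their RS reads, and their P/D tails rest on 3 to 6 reads per sample. The call on ENSMUST00000222874 was lost without P/D replicate 2 or 3 or RS replicate 2 or 3 (43.9 to 55.4 nt, adjusted p = 0.0671 to 0.0863) and with the replicate block (0.0658), and without P/D replicate 3 both Atp5mk transcripts passed, with 34.2 and -34.7 nt (adjusted p = 0.0487 and 0.0326).

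Neighbouring parts of mitochondrial metabolism were measured in the same fits. Of 21 tested transcripts of other assembly factors of the chain, 10 were longer and 2 shorter, and of 20 tested for level 4 were higher and 11 lower. Over all transcripts tested, 54.2% were longer, 1.69% shorter, 32.6% higher and 30.8% lower, so the share of longer tails in this list lay below that of all transcripts. The shorter pair was Cox11, a copper chaperone of complex IV (-23.8 nt, adjusted p = 0.0337), and Sdhaf4, an assembly factor of complex II (-41.4 nt, adjusted p = 0.0142). The 4 that were higher were 2 transcripts of Lyrm7, and 1 each of Nubpl and Uqcc1, all on 6 or fewer reads in each P/D sample. For enzymes of the citric acid cycle and pyruvate dehydrogenase, 7 of 12 were longer and none shorter, and of 12 tested for level 1 was higher and 5 lower. Carriers of adenine nucleotides and phosphate and porins had 2 of 5 longer, none shorter, and 1 of 4 lower. Medians of the tail difference were 32.4, 34.3 and 13.4 nt in these lists, against 51.0 nt in the respiratory chain members.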

How the data were processed

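Direct RNA reads of 3 P/D and 3 RS samples were analysed. Reads had been basecalled with Guppy, demultiplexed with Deeplexicon, mapped with minimap2 2.20-r1061 to GENCODE transcripts of GRCm38 and repeats, and measured with Nanopolish. Labels name SAMtools and DESeq2 too. The authors deposited raw read counts per transcript and sample. They also deposited a table of the tail length of each read in nt, with symbols. Counts and listed tails were equal in all 72240 cells compared. The minimap2 version is from the submitters' processing notes.

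Mean tails per replicate were tested with limma 3.58.1 (R 4.3.3), and counts with edgeR 4.0.16 (quasi-likelihood, TMM, filterByExpr), over all transcripts with Benjamini-Hochberg adjustment at 0.05. Pooled values were compared by two-sided exact permutation tests, enumerated with numpy 2.4.6, with n = 3 per group. Correlations and Wilson intervals were computed with scipy 1.17.1. Both fits were checked on simulated data. DESeq2 1.42.0, other scalings, filters, scales and weights, gene-level sums, the replicate number as a block and leaving out each replicate were alternatives. P-values measure the spread between pools of RNA, and intervals cover counting error only.

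Members and lists were chosen with earlier results of these data known. Members were named as paralogue pairs or c ring genes, as the most read transcript of each class, as the 5 largest gains and losses of tail where no sample had fewer than 20 reads, as the 5 highest and lowest fold changes where each replicate of the higher cell type held 50 or more reads, as X-linked, as shorter in RS, or as succinate dehydrogenase genes. Uqcrfs1, Cox6c, Cox7c, Atp5mj, Atp5mk and the pair of Ndufb11b were added after their values were seen. Symbols are those of the deposited table and coordinates those of GENCODE vM21 (GRCm38), which held all 136 member transcripts, 38 of them under another symbol.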

Additional observations from a re-analysis of the deposited data

How the results depend on the processing

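The 82 longer members ranged from 64 of 68 tested (at least 20 reads in every sample) to 89 (log2 tail length), and the 71 lower ones from 50 of 83 (at least 10 counts in every sample) to 76 (no filter), with 61 by DESeq2. Leaving out 1 replicate gave 76 to 82 longer, 2 to 4 shorter, 4 higher and 66 to 74 lower members. At the gene level 2 were higher instead of 4. Both cell types came from the same mice, but whether equal replicate numbers mark the same pool of mice is not given in the sources used here. Deviations of same-numbered samples correlated at 0.0282, 0.237 and 0.0687 for counts and -0.0106, 0.0771 and 0.0157 for tails, and P/D replicate 1 correlated best with RS replicate 3. With the replicate block, pooled values have a smallest possible sign-flip p of 0.25, 75 members were longer (all among the 82), 2 shorter, 4 higher and 74 lower, and the calls on Ndufb11b (adjusted p = 0.0697), Cox8c (0.0692), the Atp5mj transcript ENSMUST00000222874 (0.0658) and the Cox4i1 transcript ENSMUST00000181586 (0.0905) were lost, while the lower level of Ndufv2 passed (0.0432). Differences in mean tail went, without the most read transcript, to 47.0 nt for the complex I core (40.1 nt with transcripts weighted equally), 31.0 nt for the assembly factors, 13.2 nt for complex II and -31.4 nt for cytochrome c, whose share of the library then turned to 0.000866 percentage points higher in RS. Leaving out 1 replicate gave -7.17 to -0.505 nt for cytochrome c. Other signs turned in values without a call: the tail of Sdhc on the log2 scale (0.0302) and without P/D replicate 1 (1.74 nt) or RS replicate 1 (2.59 nt; leave-one-out range -10.2 to 2.59 nt), of Sdhd without P/D replicate 3 (-0.458 nt, range to 14.5 nt), of Cox7b2 without P/D replicate 2 (-0.671 nt) or RS replicate 1 (-0.864 nt, range to 3.17 nt), of Uqcrfs1 on the log2 scale (0.12) and without P/D replicate 3 (1.55 nt, range from -3.33 nt), the fold change of Ndufs1 without RS replicate 1 (0.0591, range from -0.717) and of Uqcrfs1 with at least 10 counts in every sample (0.10) or without RS replicate 3 (0.00389, range from -0.216), and the change of the assembly factors against the other members without Ndufaf3 (-14.5 nt). The cause was not tested. Tail differences within pairs were not run because no pair had 10 reads of both genes in every sample, which limits what depth allows for Cycs, Cox6b1, Cox8a, Ndufa1 and Ndufb11.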
